A study of Mus musculus with 16 samples.

Results

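The cyclin-dependent kinases Cdk4 and Cdk6, the D cyclins Ccnd1, Ccnd2 and Ccnd3, the retinoblastoma family Rb1, Rbl1 and Rbl2, and the pair Trp53 and Mdm2 were followed in the hippocampus of 8-month-old female mice. These 10 genes are the direct and downstream partners of p16 and of p19Arf, both encoded by Cdkn2a, and were taken by Ensembl identifier from a table of 49671 gene rows. All 10 passed the filter on low counts. Bulk RNA was sequenced in 16 libraries, 4 in each of 4 groups. WT mice had a wildtype genotype at both loci, p16KO mice lacked p16, PS19 mice carried the PS19 tau transgene, and PS19_p16KO mice carried the transgene and lacked p16. PS19 is a line that expresses a human tau gene with a disease mutation from the mouse prion promoter. The labels do not say which exons the p16 allele removes, in which cells, whether p19Arf is kept, or whether each sample is a separate animal. The p-values therefore measure the spread between these samples.

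In G1, D cyclins activate Cdk4 and Cdk6, which phosphorylate the retinoblastoma proteins and so release E2F factors that transcribe S-phase genes. The p16 protein binds Cdk4 and Cdk6 and blocks this step, while p19Arf holds back Mdm2, the ubiquitin ligase that sends p53 (gene Trp53) to degradation. In the adult hippocampus most neurons have left the cell cycle, and cycling cells are mainly found among progenitors and glia. Much of this control acts on proteins, through binding, phosphorylation and degradation, and transcript levels do not measure it.

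Libraries held 18485552 to 22311322 gene counts, and levels are counts divided by this total and multiplied by 1000000 (CPM). Cdkn2a, the targeted gene, was near the limit of detection and below the filter: 8 counts over the 4 WT libraries, 3 over p16KO, 18 over PS19 and 2 over PS19_p16KO. Exact permutation tests of its CPM, two-sided, gave p = 0.0286 between PS19_p16KO and PS19 (adjusted p = 0.114 over 4 tests), and p = 0.2 for PS19 against WT, 0.143 for p16KO against WT and 0.743 for PS19_p16KO against p16KO. The first is the lowest value possible with 4 libraries on each side, and it rests on library size: PS19 3 and PS19_p16KO 2 each held 1 count, at 0.0538 and 0.0524 CPM. Whether these counts fall in the deleted exons is not stated in the labels. The libraries PS19_p16KO 3, p16KO 4 and WT 1 stood apart in 8 markers of the choroid plexus, the epithelium that makes cerebrospinal fluid. Their summed levels were 9062, 5692 and 1625 CPM, against at most 462 CPM in any other library. The summed level of 10 microglial markers ran from 323 to 364 CPM in WT, 350 to 434 in p16KO, 453 to 926 in PS19 and 383 to 423 in PS19_p16KO. The 8 astrocyte markers summed to 5372 to 5545 CPM in WT, 4886 to 5764 in p16KO, 6080 to 8750 in PS19 and 4703 to 5553 in PS19_p16KO. None of these markers was at 0 in all libraries of a group, and the 6 markers of excitatory neurons summed to at least 7567 CPM. In bulk RNA, fewer cells of a type and less RNA per cell cannot be told apart.

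To compare levels between genes, CPM was divided by the length of the merged annotated exons in kilobases. On this scale the set spanned more than an order of magnitude, and only Rbl1 and Cdk6 stood apart from the other genes. Ccnd2 led with a mean of 10.7 CPM per kilobase ± 0.708 (SD over the 16 libraries). Cdk4 followed with 9.71 ± 0.699, Ccnd1 with 9.30 ± 1.996 and Mdm2 with 8.95 ± 0.694 CPM per kilobase. The ranges of these 4 genes over the 16 libraries overlapped. The genes were measured in the same libraries, and their order within a library was not tested. Rbl2 lay at 7.26 ± 0.455, Rb1 at 5.34 ± 0.43 and Trp53 at 4.80 ± 0.434 CPM per kilobase, with the ranges of Rb1 and Trp53 overlapping. The range of Rbl2, 6.37 to 8.20, overlapped those of Ccnd1 and Mdm2. Ccnd3 was lower, at 2.64 ± 0.555 CPM per kilobase. Its highest library, at 4.18, passed the lowest of Trp53, at 4.08. Rbl1 at 0.295 ± 0.0831 and Cdk6 at 0.231 ± 0.0524 CPM per kilobase were lowest and overlapped each other. A library held only 22 to 59 counts of Rbl1 and 38 to 102 counts of Cdk6. Merged exons run to 13989 bases for Cdk6 and 3249 for Cdk4, and a gene that uses a short form of a long model is understated on this scale.

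**Figure D1:**
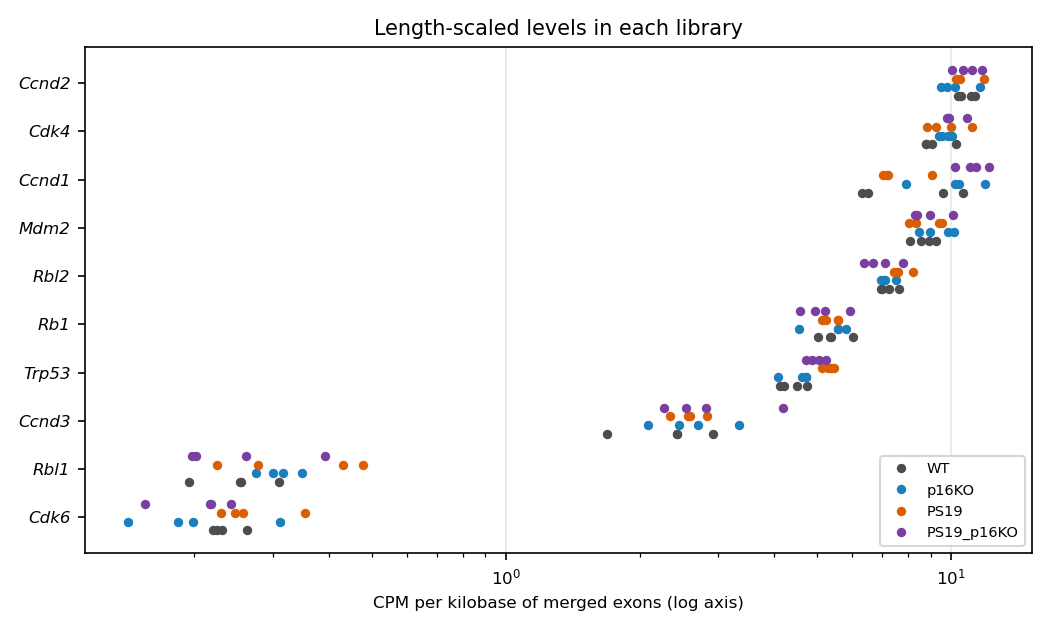
Level of each gene as CPM per kilobase of merged exons (log axis) in the 16 libraries, 1 point per library, coloured by group. Ccnd2, Cdk4, Ccnd1 and Mdm2 overlap at the top, Rbl1 and Cdk6 lie far below the rest, and the PS19_p16KO points of Ccnd1 lie to the right of its PS19 points.

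Within each family 1 or 2 members carried most of the transcripts per length, and these shares are given as a description. Of the summed D cyclins, Ccnd1 made up 38.1% ± 5.61 (SD, n = 4) in WT, 43.8% ± 3.003 in p16KO, 36.4% ± 3.20 in PS19 and 44.8% ± 2.66 in PS19_p16KO. Ccnd2 was the larger share in WT, at 51.0% ± 6.33, and in PS19, at 51.3% ± 3.58, and in PS19_p16KO its 43.5% ± 0.75 was close to that of Ccnd1. Ccnd3 stayed between 8.74% and 15.5% in every library. Cdk6 made up 1.39% to 3.17% of the summed kinases, so that Cdk4 was nearly the whole of this pair in transcripts per length. Of the retinoblastoma family, Rbl2 held 52.2% to 59.1%, Rb1 38.1% to 46.3% and Rbl1 1.55% to 3.35% over the 16 libraries.

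Promoter windows of 250 bases before to 50 bases after the annotated start were available from RefSeq (GRCm38.p6) for 7 of the 10 genes, and not for Ccnd1, Ccnd2 and Rb1. Trp53 is shown because its PS19 and WT libraries separate below, Cdk4 as the kinase with a high and even level, and Rbl1 as the retinoblastoma family member with a low and uneven one. Capitals mark CACGTG, the E box bound by Myc and other basic helix-loop-helix factors, in Cdk4 and Trp53, and TTTCGCGC, an E2F motif, in Rbl1. Each motif was searched on both strands of every window, and the 2 do not overlap each other in these. The windows are chr10:127063285-127063584 on the plus strand for Cdk4, chr2:157204485-157204784 on the minus strand for Rbl1 and chr11:69580109-69580408 on the plus strand for Trp53, written here 5′ to 3′ along the gene.
Cdk4: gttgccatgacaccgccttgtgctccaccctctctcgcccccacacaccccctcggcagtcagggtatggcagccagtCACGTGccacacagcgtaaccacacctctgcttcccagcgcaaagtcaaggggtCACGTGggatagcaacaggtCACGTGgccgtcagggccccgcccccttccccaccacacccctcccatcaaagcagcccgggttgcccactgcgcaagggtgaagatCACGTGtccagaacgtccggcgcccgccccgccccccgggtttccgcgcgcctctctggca
Rbl1: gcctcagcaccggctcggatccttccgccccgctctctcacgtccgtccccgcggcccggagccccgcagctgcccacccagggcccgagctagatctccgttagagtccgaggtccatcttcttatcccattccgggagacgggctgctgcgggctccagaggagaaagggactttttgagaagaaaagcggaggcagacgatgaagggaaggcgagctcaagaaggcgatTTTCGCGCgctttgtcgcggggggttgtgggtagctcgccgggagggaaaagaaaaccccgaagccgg
Trp53: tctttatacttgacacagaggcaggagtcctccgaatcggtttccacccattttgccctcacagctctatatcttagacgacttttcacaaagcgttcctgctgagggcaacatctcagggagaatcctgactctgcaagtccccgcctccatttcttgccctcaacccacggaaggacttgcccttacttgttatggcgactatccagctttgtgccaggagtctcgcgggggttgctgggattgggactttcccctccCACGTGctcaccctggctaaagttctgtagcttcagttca
The Cdk4 window held 4 copies of CACGTG, starting at positions -172, -118, -98 and -11 relative to the annotated start, which is counted as 0. Of all 32851 RefSeq windows of this length, 7.15% held at least 1 CACGTG and 0.0244% held 4 or more. The E2F motif of Rbl1 began at position -18, and 0.323% of windows held these letters. In Trp53 CACGTG began at position 10, after the start. The window of Cdk6 also held CACGTG. A match describes the letters in the window and is not evidence of binding.

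Differences between genotypes were small for nearly all of the set. In the fit across all 16372 tested genes with edgeR's quasi-likelihood test, 0 of the 10 genes had an adjusted p (Benjamini-Hochberg) under 0.05 in any of 7 comparisons. The genes with the smallest p-values were Ccnd1, higher where p16 was missing, and Trp53, higher where the transgene was present. Over all tested genes the same rule called 1.61% in PS19 against WT, 0.0% in p16KO against WT, 0.825% in PS19_p16KO against PS19 and 0.0183% in PS19_p16KO against p16KO. It called 0.00611% in the interaction of the genotypes, 0.226% for p16 loss averaged over both transgene states, and 0.391% for the transgene averaged over both p16 states. At an unadjusted p under 0.05 the fit held 1 of the 10 genes in PS19 against WT, 2 in PS19_p16KO against PS19, 1 in each averaged comparison and 0 in the other 3. At that level stood 9.57% of all tested genes in PS19 against WT, 8.59% in PS19_p16KO against PS19, 7.96% for averaged p16 loss and 10.02% for the averaged transgene. In the other 3 the shares were 3.99% in p16KO against WT, 3.65% in PS19_p16KO against p16KO and 5.44% in the interaction. DESeq2 called 1 gene of the set in PS19_p16KO against PS19, for averaged p16 loss and for the averaged transgene, where it called 1.77%, 0.656% and 1.1% of the genes it gave an adjusted p. It called 0 of the set in PS19 against WT (2.53% of those genes), p16KO against WT (0.11%), PS19_p16KO against p16KO (0.0429%) and the interaction (0.55%). Limma-voom with quality weights called 0 throughout.

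The medians of the 10 fitted changes lay between -0.05 and 0.09 in the 7 comparisons. In PS19 against WT 7 of the 10 log2 fold changes were positive, with a median of 0.09 against -0.01 over all tested genes. In p16KO against WT 6 were positive, with a median of 0.05, and 0 were free of overlap between the groups (2.99% of all tested genes). In PS19_p16KO against PS19 5 were positive, with a median of -0.01, and in PS19_p16KO against p16KO 6 were positive, with a median of 0.03. For the averaged transgene 8 were positive (median 0.06), for averaged p16 loss 4 (-0.02) and in the interaction 3 (-0.05). Outside PS19 against WT, the medians over all tested genes lay between -0.002 and 0.007. PS19 libraries enter PS19 against WT and PS19_p16KO against PS19 alike, and WT and p16KO libraries are likewise shared, so the comparisons are not independent of each other.

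**Figure D2:**
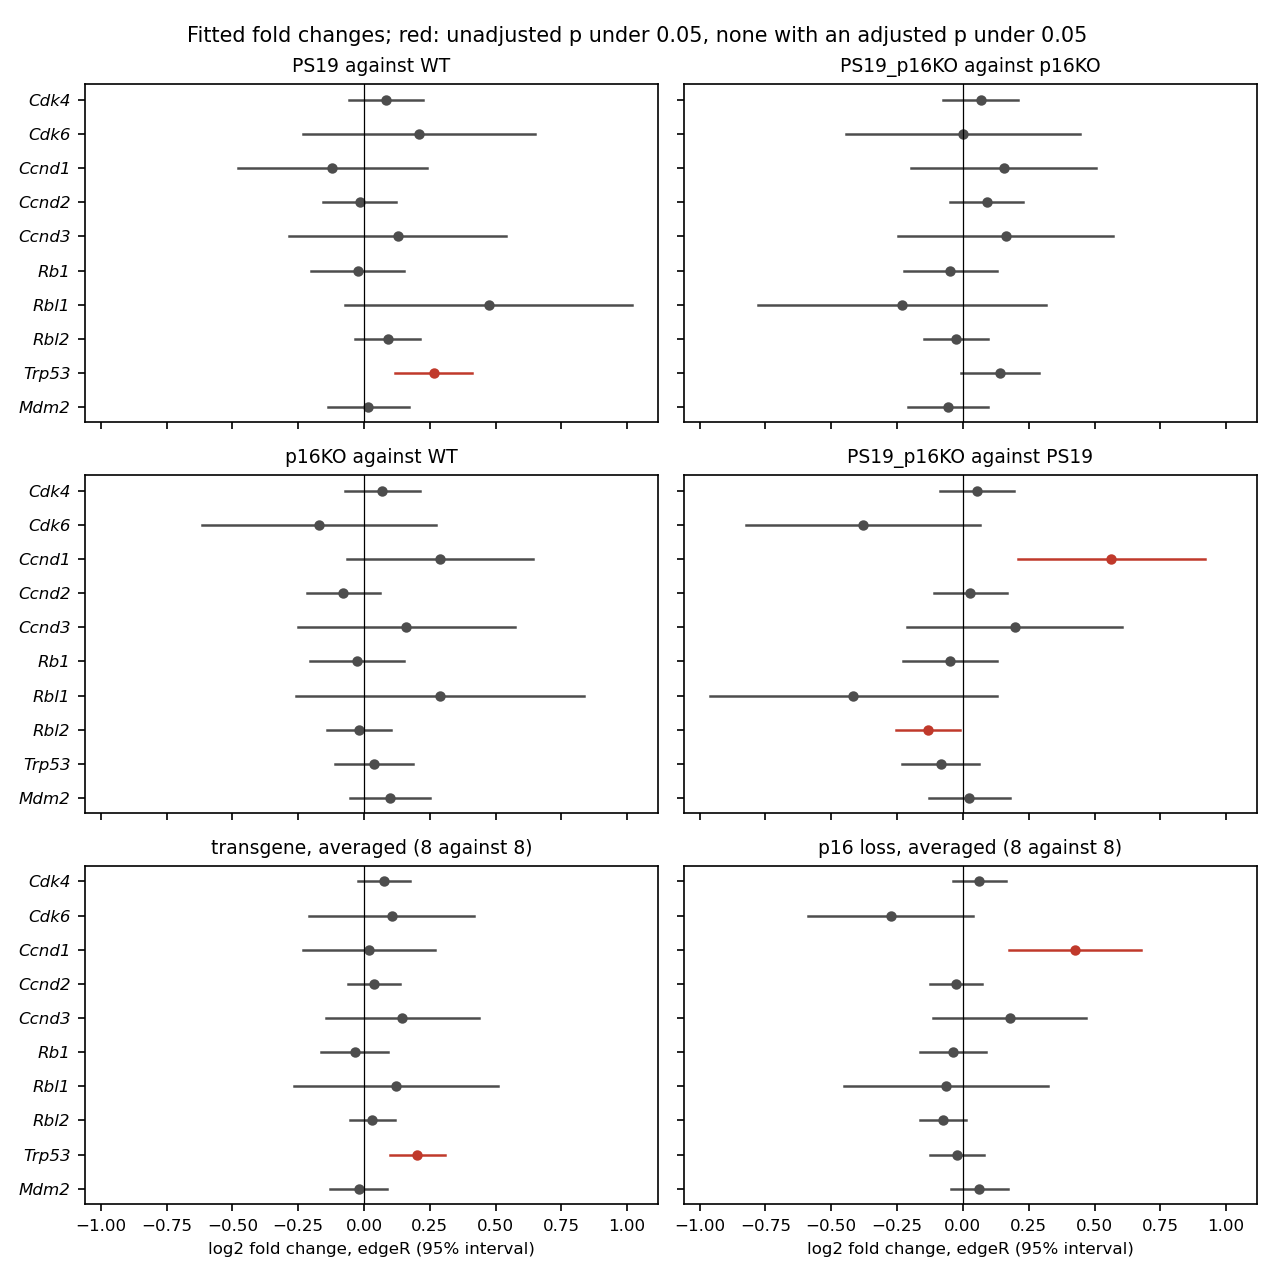
Log2 fold change of each gene from the edgeR fit (points) with its 95% interval (bars) in the 4 pairwise and the 2 averaged comparisons. Red marks an unadjusted p under 0.05, which holds for Trp53 in PS19 against WT and in the averaged transgene comparison, and for Ccnd1 and Rbl2 in PS19_p16KO against PS19, with Ccnd1 also in averaged p16 loss.

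Ccnd1 (chromosome 7, 144929931 to 144939925, minus strand) encodes cyclin D1, the D cyclin most often tied to growth factor signalling. It stood at 42.6, 33.8, 33.0 and 34.0 CPM in the 4 PS19 libraries and at 57.3, 48.0, 52.0 and 53.5 CPM in the 4 PS19_p16KO libraries. Every PS19_p16KO library lay above every PS19 library. WT libraries were scattered, at 50.2, 29.6, 30.7 and 45.1 CPM, and p16KO libraries stood at 48.2, 37.3, 49.0 and 56.0 CPM. These 2 groups overlapped, with WT 1 and WT 4 within the p16KO range. Group means were 38.9 CPM ± 10.3 (SD, n = 4) in WT, 47.6 ± 7.73 in p16KO, 35.9 ± 4.51 in PS19 and 52.7 ± 3.82 in PS19_p16KO.

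The fitted difference of Ccnd1 between PS19_p16KO and PS19 was 0.56 ± 0.17 on the log2 scale (SE), a ratio of 1.48 with a 95% interval from 1.15 to 1.89. With edgeR its adjusted p was 0.184 (unadjusted 0.00433). Over the alternatives the adjusted p ran from 0.0149 to 0.500. DESeq2 gave 0.0149, and edgeR with only the libraries of these groups gave 0.0497. No other gene of the set was free of overlap between these groups, a state that 4.07% of all tested genes shared. Averaged over both transgene states, p16 loss came with a ratio of 1.34 (log2 0.43 ± 0.12, edgeR adjusted p = 0.226, DESeq2 adjusted p = 0.0148, range over the alternatives 0.0148 to 0.430). None of the 10 genes was free of overlap between the 8 libraries without p16 and the 8 with it, against 0.0916% of all tested genes.

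Without the transgene the difference of Ccnd1 had the same sign and a wide interval. In p16KO against WT the log2 fold change was 0.29 ± 0.17 (edgeR adjusted p = 0.999), with a 95% interval from -0.07 to 0.64 that holds 0 and overlaps the interval found with the transgene. Leaving out 1 library moved it between 0.18 (without WT 2) and 0.43 (without WT 1). The interaction, the test of whether the p16 difference depends on the transgene, was 0.27 ± 0.23 with an edgeR adjusted p of 0.999. It ran from 0.14 without WT 1 to 0.39 without WT 2, and was 0.17 without p16KO 2. PS19 against WT gave -0.12 ± 0.17 and PS19_p16KO against p16KO 0.16 ± 0.16, neither called. Leaving out 1 library moved the former between -0.23 (without WT 2) and 0.01 (without WT 1), and the latter between 0.05 (without p16KO 2) and 0.24 (without p16KO 4). WT 1 and p16KO 4, both rich in choroid plexus markers, were the highest of their groups in Ccnd1, and without these and PS19_p16KO 3 the log2 fold change of Ccnd1 in PS19_p16KO against PS19 was 0.58 (edgeR adjusted p = 0.167) and that of averaged p16 loss 0.46. The microglial marker sums of PS19, 453 to 926 CPM, lay above the 383 to 423 CPM of PS19_p16KO, opposite in direction to Ccnd1. Markers of dentate granule cells had the same direction as Ccnd1, with 6 of 6 log2 fold changes positive in PS19_p16KO against PS19 (median 0.18) and for averaged p16 loss (median 0.15). Their sums ran from 634 to 673 CPM in WT, 680 to 767 in p16KO, 565 to 696 in PS19 and 675 to 772 in PS19_p16KO. The 6 markers of fibroblasts and meninges were also positive in 6 of 6 in both comparisons (medians 0.35 and 0.31), with sums of 71.7 to 172 CPM in WT, 86.2 to 307 in p16KO, 65.9 to 94.1 in PS19 and 52.7 to 326 in PS19_p16KO, where 326 was library 3 and the next highest 85.5. Choroid plexus markers were positive in 8 of 8 in both comparisons (medians 3.57 and 2.47). Oligodendrocyte and endothelial markers were each positive in 7 of 7 for averaged p16 loss (medians 0.14 and 0.06). In PS19_p16KO against PS19 each was positive in 4 of 7. Astrocyte markers were positive in 0 of 8 and activated microglial markers in 0 of 10 in both comparisons. The part of these cell types in the Ccnd1 level was not tested.

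Part of the Ccnd1 model is shared with a neighbour on the other strand. LTO1, a gene tied to ribosome maturation, overlaps 1100 exonic bases of Ccnd1, 23.4% of its merged exons, and no label states whether the counting used strand. The group mean of LTO1 was 15.1 CPM ± 0.568 (SD, n = 4) in PS19_p16KO and 17.8 ± 2.05 in PS19. Its log2 fold change of -0.23 ± 0.09 (edgeR adjusted p = 0.353) was opposite in sign to that of Ccnd1. Across the 16 libraries the genes most like Ccnd1 among 13285 genes with a mean log2 CPM above 1 were Mypop, Eif2b5 and Gipc1, with Pearson r of log2 CPM of 0.873, 0.845 and 0.842. Within groups, after removing group means, r was 0.788, 0.773 and 0.752. These were picked as the highest values and share libraries and depth with Ccnd1, so they are a description.

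Ccnd2 (chromosome 6, 127125162 to 127152193), encoding cyclin D2, which dividing progenitors of the dentate gyrus depend on, had the highest level and was steady across groups. Its group means were 101.7 CPM ± 4.28 (SD, n = 4) in WT, 96.7 ± 8.86 in p16KO, 100.9 ± 7.25 in PS19 and 102.4 ± 6.80 in PS19_p16KO. The groups overlapped in every comparison, and pairwise log2 fold changes ran from -0.08 to 0.09. In PS19_p16KO against PS19 its 95% interval went from -0.11 to 0.17, which leaves out a change of the size fitted for Ccnd1.

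Ccnd3 (chromosome 17, 47505051 to 47599691) encodes cyclin D3, and in 3 groups its highest value lay in the library with most choroid plexus RNA. Its libraries stood at 25.6, 14.8, 21.3 and 21.3 CPM in WT, 21.5, 23.7, 18.3 and 29.4 in p16KO, 24.9, 22.5, 20.6 and 22.8 in PS19, and 22.3, 19.9, 36.7 and 24.7 in PS19_p16KO. The highest library of WT, p16KO and PS19_p16KO was in each case the one richest in choroid plexus markers, with 36.7 CPM in the library that held 9062 CPM of them. In PS19 the highest value, 24.9 CPM, lay in library 1, which had the lowest choroid plexus sum of that group, 191 CPM. In PS19_p16KO against PS19 the log2 fold change was 0.20 ± 0.19 with all libraries and -0.0032 without those 3. Leaving out PS19_p16KO 3 alone gave -0.0053. Pairwise log2 fold changes of Ccnd3 with all libraries ran from 0.13 to 0.20, all with groups that overlapped.

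**Figure D3:**
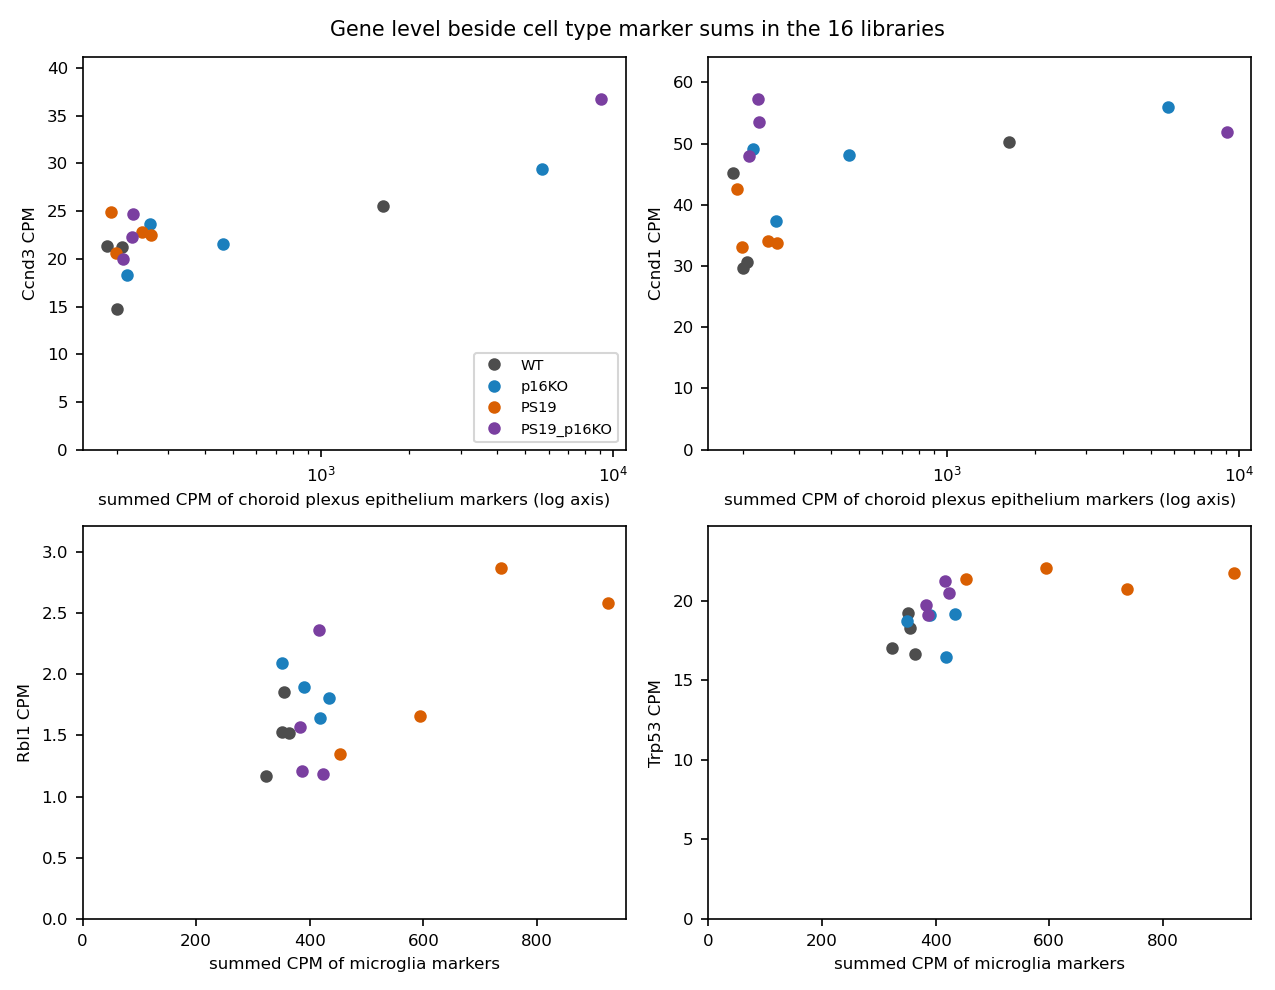
Level of a gene (CPM) against the summed CPM of cell type markers in the 16 libraries, coloured by group: Ccnd3 and Ccnd1 against choroid plexus markers (log axis), Rbl1 and Trp53 against microglial markers. Ccnd3 is highest in the library with 9062 CPM of choroid plexus markers, and Ccnd1 is high in PS19_p16KO libraries with and without them. In PS19, Trp53 lies between 20.7 and 22.0 CPM and the microglial sum between 453 and 926 CPM. The part of these cells in the levels was not tested.

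Cdk4 (chromosome 10, 127063534 to 127067920), the G1 kinase gene with the higher transcript level here, was nearly level across genotypes. Means were 29.9 CPM ± 2.31 (SD, n = 4) in WT, 31.5 ± 0.962 in p16KO, 31.8 ± 3.34 in PS19 and 32.8 ± 1.62 in PS19_p16KO, and all libraries lay between 28.5 and 36.2 CPM. All pairwise log2 fold changes were positive and small, from 0.05 to 0.08, and none passed the test. Their 95% intervals reached at most 0.23, so changes above a ratio of 1.17 lie outside them. Cdk4 shares 641 exonic bases, 19.7% of its merged exons, with Tspan31 on the other strand. Tspan31 stayed between 44.0 and 45.5 CPM in its group means.

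Cdk6 (chromosome 5, 3341485 to 3531008), the second kinase that p16 binds, was low and uneven. It stood at 3.67, 3.14, 3.23 and 3.08 CPM in WT, 2.57, 2.77, 4.36 and 1.99 in p16KO, 3.60, 4.95, 3.44 and 3.21 in PS19, and 3.03, 3.04, 3.38 and 2.16 in PS19_p16KO. PS19 2 and p16KO 3 were the highest libraries and the groups overlapped in every comparison. The log2 fold change of -0.38 ± 0.21 in PS19_p16KO against PS19 did not pass the test (edgeR adjusted p = 0.675) and was -0.23 without PS19 2. Averaged p16 loss gave -0.27 ± 0.15 (edgeR adjusted p = 0.694), the opposite sign to Ccnd1. In PS19_p16KO against p16KO the value was near 0, with a 95% interval from -0.44 to 0.45. At 38 to 102 counts a library, differences of this size were within the spread.

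Rb1 and Rbl2 gave most of the retinoblastoma family transcripts per length in this tissue, and neither changed by a called amount. Rb1 (chromosome 14, 73183673 to 73325822), the retinoblastoma protein itself, had means of 32.8 CPM ± 2.53 (SD, n = 4) in WT, 32.3 ± 3.37 in p16KO, 32.4 ± 1.38 in PS19 and 31.1 ± 3.41 in PS19_p16KO. Its pairwise log2 fold changes lay between -0.05 and -0.02. Rbl2 (chromosome 8, 91070057 to 91123844) encodes p130, the family member that holds E2F targets silent in resting cells as part of the DREAM complex. It stood at 57.1, 62.0, 56.2 and 57.5 CPM in PS19 and 48.1, 50.5, 53.6 and 58.9 in PS19_p16KO. Of the latter, only library 4 reached the PS19 range. WT libraries lay between 52.6 and 57.8 CPM and p16KO libraries between 52.6 and 56.7. The difference between PS19_p16KO and PS19 was -0.13 ± 0.06 on the log2 scale (edgeR unadjusted p = 0.0345, adjusted p = 0.507), and between PS19 and WT 0.09 ± 0.06 (adjusted p = 0.718). The values are 0.912 and 1.06 as ratios. Both genes share exonic bases with neighbours on the other strand, Rb1 with Rcbtb2 (488 bases) and Lpar6 (408 bases), and Rbl2 with Aktip (693 bases).

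Rbl1 (chromosome 2, 157145893 to 157204534) encodes p107, an E2F-regulated member of the family that is usually found in cycling cells. It stood at 1.52, 1.52, 1.85 and 1.17 CPM in WT, 1.80, 1.64, 1.90 and 2.09 in p16KO, 2.58, 2.86, 1.35 and 1.66 in PS19, and 1.18, 1.21, 2.36 and 1.57 in PS19_p16KO. The 2 highest values were in PS19 1 and PS19 2, whose microglial marker sums of 926 and 736 CPM were also the highest, and the next in PS19_p16KO 3, the library richest in choroid plexus markers. The other 2 PS19 libraries lay within the WT range of 1.17 to 1.85 CPM. The part of these cell types in the Rbl1 level was not tested. The fitted log2 fold change was 0.47 ± 0.26 in PS19 against WT (edgeR adjusted p = 0.624) and -0.42 ± 0.26 in PS19_p16KO against PS19 (adjusted p = 0.723). Without PS19 2 these were 0.30 and -0.24. The interaction of -0.70 ± 0.37 was the largest in the set and had an edgeR adjusted p of 0.995.

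Trp53 (chromosome 11, 69580359 to 69591873), encoding p53, was the gene of the set with the clearest difference by transgene. It stood at 16.7, 19.2, 18.3 and 17.0 CPM in WT and at 21.7, 20.7, 21.4 and 22.0 CPM in PS19. Without p16 it stood at 19.1, 16.5, 19.1 and 18.7 CPM in p16KO and at 20.5, 19.1, 21.2 and 19.7 CPM in PS19_p16KO. All PS19 libraries lay above all WT libraries, while the lowest PS19_p16KO library, at 19.09 CPM, lay just below the highest p16KO library, at 19.14 CPM. Means were 17.8 CPM ± 1.17 (SD, n = 4) in WT, 18.4 ± 1.26 in p16KO, 21.5 ± 0.558 in PS19 and 20.1 ± 0.925 in PS19_p16KO.

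The fitted ratio of Trp53 was 1.201 in PS19 against WT (log2 0.26 ± 0.07, 95% interval of the ratio from 1.08 to 1.33), with an edgeR unadjusted p of 0.0013 and an adjusted p of 0.067. Over the alternatives its adjusted p ran from 0.054 to 0.224 and it was called in none. It was the only gene of the set whose PS19 and WT libraries did not overlap, a state of 4.99% of all tested genes. In PS19_p16KO against p16KO the ratio was 1.10 (log2 0.14 ± 0.07, adjusted p = 0.999). There 0 of the 10 genes were free of overlap in CPM, against 2.64% of all tested genes. For the transgene averaged over both p16 states the ratio was 1.15 (log2 0.20 ± 0.05, edgeR adjusted p = 0.0846). DESeq2 put this at an adjusted p of 0.0489, and the alternatives ranged from 0.0489 to 0.289. In CPM 0 of the 10 genes were free of overlap between the 8 libraries with the transgene and the 8 without it, against 0.0611% of all tested genes. With CPM rescaled by TMM, as in the fit, Trp53 alone of the set was free of overlap in both of these comparisons, as were 2.80% and 0.0672% of all tested genes.

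The p16 genotype did not move Trp53 by a called amount. The log2 fold change was 0.04 ± 0.07 in p16KO against WT, -0.08 ± 0.07 in PS19_p16KO against PS19 and -0.12 ± 0.10 for the interaction. Trp53 was higher in the group whose microglial and astrocyte markers were higher. Oligodendrocyte markers had the same direction, with 7 of 7 log2 fold changes positive in PS19 against WT (median 0.34) and for the averaged transgene (median 0.24), none of them called. Their sums ran from 2331 to 3398 CPM in WT, 3050 to 3450 in p16KO, 2929 to 4085 in PS19 and 3013 to 3811 in PS19_p16KO. The part of these cells in the Trp53 level was not tested. In PS19 libraries 1, 2, 3 and 4 the microglial sums were 926, 736, 453 and 594 CPM. Trp53 stood there at 21.7, 20.7, 21.4 and 22.0 CPM. In PS19_p16KO and p16KO the microglial sums overlapped, at 383 to 423 and 350 to 434 CPM. Without the 3 libraries rich in choroid plexus markers the log2 fold change was 0.22 in PS19 against WT (adjusted p = 0.208) and 0.18 for the averaged transgene (adjusted p = 0.289). The processed pseudogene Trp53-ps had 0 counts in all libraries.

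Mdm2 (chromosome 10, 117688875 to 117710758), the ligase that degrades p53 and is itself transcribed by p53, showed no such difference. Its means were 44.2 CPM ± 2.57 (SD, n = 4) in WT, 47.5 ± 3.87 in p16KO, 44.8 ± 3.84 in PS19 and 45.4 ± 4.21 in PS19_p16KO, with groups that overlapped in every comparison. The log2 fold change in PS19 against WT was 0.02, with a 95% interval from -0.14 to 0.17, and for the averaged transgene -0.02, with an interval from -0.13 to 0.09. The latter interval does not reach the 0.20 fitted for Trp53. Per length, Mdm2 made up 66.4% ± 2.59 (SD, n = 4) of Mdm2 plus Trp53 in WT and 62.4% ± 2.27 in PS19.

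**Figure D4:**
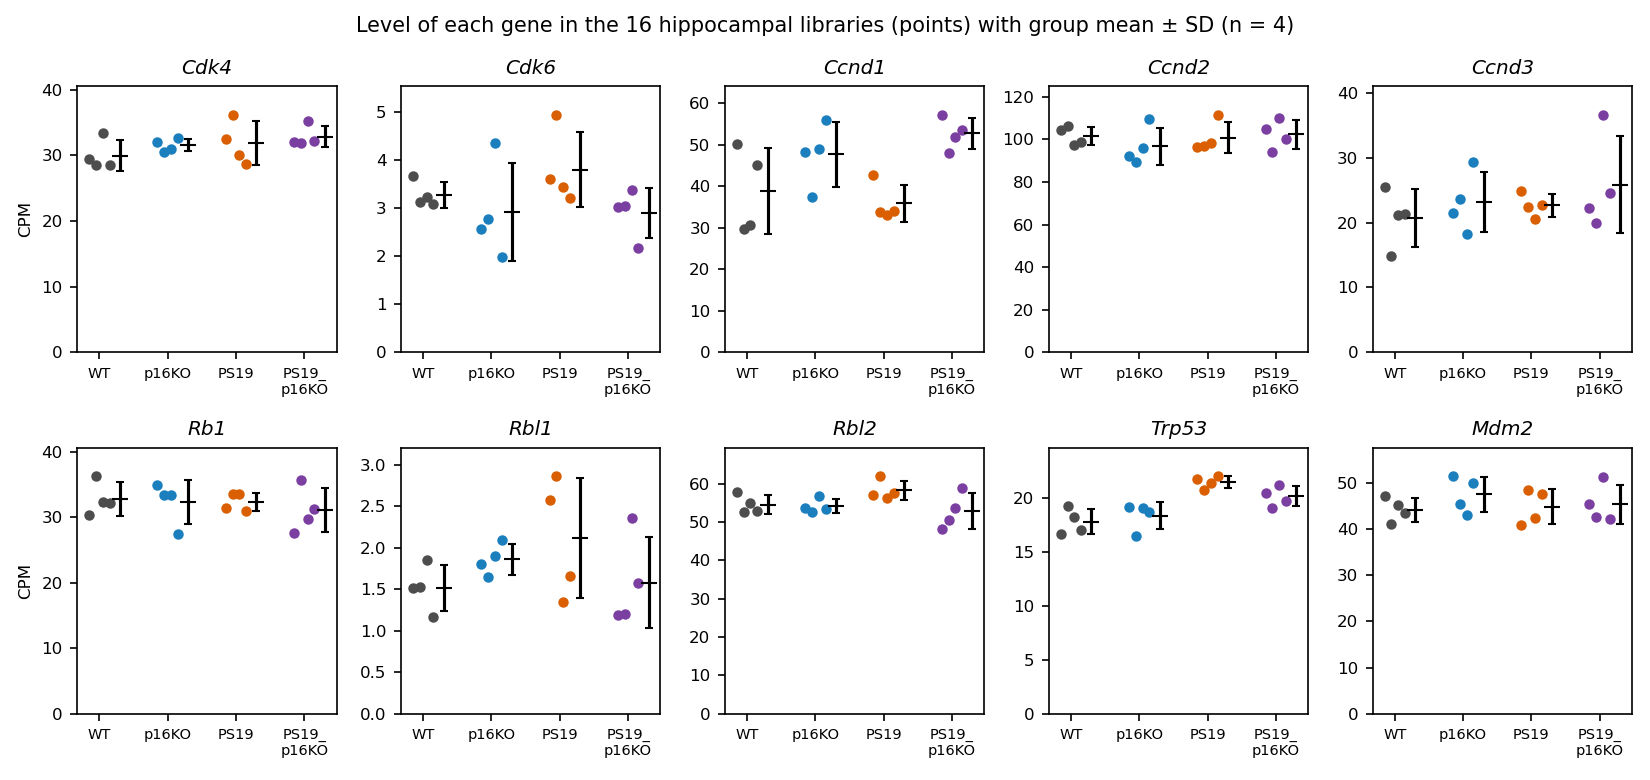
Level of each of the 10 genes in CPM (axes start at 0) in the 4 groups, with 1 point per library and the mean ± SD (n = 4) beside them. Trp53 in PS19 (20.7 to 22.0 CPM) lies above WT (16.7 to 19.2 CPM), Ccnd1 in PS19_p16KO (48.0 to 57.3 CPM) lies above PS19 (33.0 to 42.6 CPM), and the other genes overlap between groups.

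The wider pathway was read from 9 lists with 110 genes in all: the Ink4 and Cip/Kip inhibitors, other cell cycle cyclins and kinases, E2F and DP factors, the MuvB core, S-phase E2F targets, mitotic genes, D cyclin turnover, p53 regulators and p53 targets. Of these 99 passed the filter, and those below it included Cdk1, Ccnb1, Ccnb2, Aurkb and Birc5, genes of mitosis. With edgeR 0 of the 99 were called in any of the 7 comparisons. At an unadjusted p under 0.05 there were 11 of 99 in PS19 against WT and 7 in PS19_p16KO against PS19, where all genes gave 9.57% and 8.59%. There were 3 in p16KO against WT (3.99% of all genes), 4 in PS19_p16KO against p16KO (3.65%), 3 in the interaction (5.44%), 7 for averaged p16 loss (7.96%) and 14 for the averaged transgene (10.02%). DESeq2 called 2 of the 99 in PS19 against WT (Cdkn1a and Fas) and 2 in PS19_p16KO against PS19 (Cdkn1a and Psrc1). In these 2 comparisons it called 2.53% and 1.77% of all genes with an adjusted p. DESeq2 called 0 in the other 5, and limma-voom called 0 in all 7.

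The S-phase targets of E2F, which pocket proteins repress, had positive log2 fold changes in 15 of 22 genes in PS19 against WT (median 0.12), 15 of 22 in p16KO against WT (0.04), 9 of 22 in PS19_p16KO against PS19 (-0.05) and 10 of 22 in PS19_p16KO against p16KO (-0.03). They were positive in 10 of 22 for averaged p16 loss (-0.02), 14 of 22 for the averaged transgene (0.10) and 8 of 22 in the interaction (-0.16). The p53 targets were positive in 13 of 24 genes in PS19 against WT (median 0.04), 8 of 24 in p16KO against WT (-0.04), 11 of 24 in PS19_p16KO against PS19 (-0.04) and 17 of 24 in PS19_p16KO against p16KO (0.08). They were positive in 7 of 24 for averaged p16 loss (-0.06), 17 of 24 for the averaged transgene (0.05) and 13 of 24 in the interaction (0.02). Over all tested genes the positive share lay between 48.3% and 52.1% in the 7 comparisons. Medians of the other 7 lists lay between -0.22 and 0.24.

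The pathway genes named next were chosen after their values were seen. Cdkn1a, which encodes the kinase inhibitor p21 and is a p53 target, ranged from 5.60 to 7.69 CPM in WT, 6.83 to 15.6 in PS19 and 4.61 to 8.60 in PS19_p16KO. Its log2 fold change was 0.77 ± 0.21 in PS19 against WT (edgeR adjusted p = 0.0811) and -0.73 ± 0.21 in PS19_p16KO against PS19 (adjusted p = 0.146). Fas, a death receptor and p53 target, ranged from 0.849 to 1.10 CPM in WT, 1.35 to 2.28 in PS19 and 0.541 to 1.36 in PS19_p16KO, with log2 fold changes of 1.03 ± 0.28 (adjusted p = 0.0715) and -0.95 ± 0.28 (adjusted p = 0.149). Both had their highest group mean in PS19, where the microglial sums were also highest, and the part of those cells was not tested. Psrc1, also listed as a p53 target, went the opposite way to these genes. Its log2 fold change was -0.25 ± 0.12 in PS19 against WT (edgeR adjusted p = 0.498) and 0.45 ± 0.12 in PS19_p16KO against PS19 (adjusted p = 0.0789).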

How the data were processed

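Total RNA of mouse hippocampus was sequenced in bulk. The authors deposited raw gene counts as 1 table of 49671 genes and 92 ERCC spike-ins, and the spike-ins (0.574% to 1.06% of a library) were left out. The tools named per the submitters' processing notes, with no role or order, are STAR 2.5.2b, Trimmomatic 0.36, DESeq2, Subread 1.5.2 and featureCounts, and the build is GRCm38. No source used here gives the annotation release or the strand setting, so overlapping genes may share reads.

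Groups and replicate numbers were taken from the titles and genotype labels. CPM is the count divided by the library's gene counts, times 1000000, without further scaling. All 16 libraries entered 1 edgeR 4.0.16 quasi-likelihood fit in R 4.3.3 (filterByExpr with a minimum count of 10, TMM, robust dispersion, 1 mean per group), with Benjamini-Hochberg adjustment over all 16372 tested genes and a threshold of 0.05. The SE was derived from the F statistic. The procedure was tested on simulated data. Exon lengths and coordinates came from GENCODE, and promoter windows from RefSeq GRCm38.p6. Replicates differed by more than sampling noise in all 24 pairs of a group (chi-square per degree of freedom 4.82 to 26.3).

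The members and lists were chosen with earlier results of these data known. All 10 genes and Cdkn2a are named by rule, as are up to 4 called genes of each pathway list and the 3 genes most like Ccnd1. Other names were chosen after their values were seen. Alternatives were DESeq2 1.42.0, limma-voom (limma 3.58.1) with quality weights, RLE scaling, no filter, a filter at 1 CPM in 4 libraries, a replicate block, a batch term from the library names, only the groups compared, and leaving out each library in turn. Leaving out the 3 libraries rich in choroid plexus markers was chosen after seeing the data.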

Additional observations from a re-analysis of the deposited data

Results flagged for a closer look

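In 4 of the 40 gene and group combinations, 1 library stood apart from the other 3, with a gap to the nearest of them above Dixon's 95% limit. Chance gives about 1 such case in 20. Ccnd1 stood at 42.6 CPM in PS19 1, against 33.0 to 34.0 CPM in the other PS19 libraries, and this library still lay below every PS19_p16KO library. Trp53 stood at 16.5 CPM in p16KO 2, against 18.7 to 19.1 CPM in the other p16KO libraries. Ccnd2 stood at 111.7 CPM in PS19 4, against 96.6 to 98.3 CPM. Cdk4 stood at 35.3 CPM in PS19_p16KO 3, the library richest in choroid plexus markers, against 31.9 to 32.2 CPM.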

How the results depend on the processing

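The 70 fitted changes (10 genes in 7 comparisons) were recomputed in 1400 alternatives, of which 1328 kept direction and side of the threshold, 6 gained a call, 0 lost one and 66 changed sign. The largest main value among the 26 changes that turned was 0.21 on the log2 scale. Genes of the set called in a comparison went from 0 to 1 with DESeq2 (Ccnd1 in PS19_p16KO against PS19 and averaged p16 loss, Trp53 for the averaged transgene), with the replicate block (Ccnd1 in the same 2, log2 0.56 and 0.43, adjusted p = 0.0263 and 0.0387) and with only the groups compared (Ccnd1 in PS19_p16KO against PS19, 0.57). Leaving out a library always gave 0.

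The replicate numbers showed no sign of pairing the samples, though correlations cannot settle whether they do. Same-numbered libraries correlated at -0.388 to 0.223 in their deviations from group means, and libraries with different numbers at -0.331 to 0.558. Of the 16 libraries, 4 correlated best with their own number. The block gave 23 called genes for averaged p16 loss and 5 for the interaction.

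All genes called also moved. In PS19 against WT 264 became 70 with only the groups compared. In p16KO against WT 0 became 18 (DESeq2), 9 (limma-voom), 4 (no filter), 9 (only the groups compared) and 7 (without the choroid-rich libraries). In PS19_p16KO against PS19 135 became 278 (DESeq2), 37 (limma-voom), 87 (library-name term), 8 (only the groups compared) and 62 (without the choroid-rich libraries). In PS19_p16KO against p16KO 3 became 7 (DESeq2) and 5 (limma-voom). For the interaction 1 became 6 (RLE), 88 (DESeq2), 20 (no filter) and 13 (library-name term). For averaged p16 loss 37 became 107 (DESeq2) and 20 (library-name term). For the averaged transgene 64 became 179 (DESeq2), 28 (limma-voom), 18 (library-name term) and 31 (without the choroid-rich libraries). Leaving out 1 library gave 124 to 438 in PS19 against WT, 0 to 2 in p16KO against WT, 29 to 347 in PS19_p16KO against PS19, 2 to 5 in PS19_p16KO against p16KO, 1 to 160 for the interaction, 10 to 119 for averaged p16 loss and 15 to 206 for the averaged transgene. Leaving out PS19 3 gave the highest count in 5 of the 7. The cause was not tested.

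Signs turned without the choroid-rich libraries for Ccnd1 in PS19 against WT (0.015), for Cdk6 (0.025), Rb1 (0.0024), Rbl2 (0.012) and Trp53 (-0.0056) in p16KO against WT, for Ccnd3 (-0.0032) and Mdm2 (-0.024) in PS19_p16KO against PS19, for Cdk6 in PS19_p16KO against p16KO (-0.21) and for Ccnd3 in the interaction (-0.14). Limma-voom turned Ccnd2 in PS19 against WT (0.021) and PS19_p16KO against PS19 (-0.0068), Mdm2 in the latter (-0.000155), Cdk4 (0.019) and Ccnd3 (-0.021) in the interaction, and Rbl1 for the averaged transgene (-0.021). Cdk6 in PS19_p16KO against p16KO, near 0, turned to -0.0043 (RLE), -0.0033 (DESeq2), -0.051 (limma-voom), -0.0047 (CPM filter) and -0.039 (library-name term).

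Leaving out 1 library turned further signs, with these ranges. In PS19 against WT: Ccnd1 -0.23 to 0.012, Ccnd2 -0.077 to 0.0078, Ccnd3 -0.0058 to 0.23, Mdm2 -0.022 to 0.053, Rb1 -0.074 to 0.031. In p16KO against WT: Rb1 -0.067 to 0.046, Rbl2 -0.042 to 0.0082. In PS19_p16KO against PS19: Ccnd3 -0.0053 to 0.30, Mdm2 -0.026 to 0.062, Rb1 -0.13 to 0.0039. In PS19_p16KO against p16KO: Ccnd3 -0.042 to 0.29, Cdk6 -0.15 to 0.26, Rb1 -0.12 to 0.0023, Rbl2 -0.085 to 0.012. In the interaction: Ccnd3 -0.17 to 0.17, Cdk4 -0.069 to 0.044, Cdk6 -0.355 to 0.048, Rb1 -0.10 to 0.029. For averaged p16 loss: Ccnd2 -0.056 to 0.0048, Rbl1 -0.19 to 0.025, Trp53 -0.035 to 0.0022. For the averaged transgene: Ccnd1 -0.038 to 0.082, Rbl1 -0.0030 to 0.20. Depth limits Cdk6 and Rbl1 most, at 22 to 102 counts a library.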
